A study of Mus musculus with 8 samples.

Results

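Alveolar macrophages of mouse lung grafts were described here by 10 genes that mark their identity, Pparg, Siglecf, Marco, Mrc1, Chil3, Ear1, Ear2, Fabp1, Krt79 and Plet1. The genes were taken by name as a list and read in each mouse in the cells that the deposited annotation calls alveolar macrophages, with monocytes, myeloid cells and T cells read in the same way for comparison. All 10 were among the 17921 genes of the count table, and 2494 of its 20778 cells carried the alveolar macrophage label. Single cells came from left lung grafts taken 1 month after orthotopic lung transplantation (LTx), with 1 library per graft. In the 5 control mice a C57BL/6 (B6) lung was placed into a B6 recipient (B6→B6). In the 3 mice of the bronchiolitis obliterans syndrome (BOS) group the donor lung carried the human HLA-A2.1 transgene on the C57BL/6 background and the recipient was B6 (HLA→B6). Donors and recipients were male, and mice of both groups received no immunosuppression. The ages of the mice are not given in the sources used here. A graft of this kind holds donor cells and cells of the recipient that entered it, and the counts do not tell them apart.

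An alveolar macrophage lives on the air side of the alveolus, where it clears particles, dead cells and spent surfactant. Its program is set in the lung by granulocyte-macrophage colony-stimulating factor (GM-CSF) from type 2 pneumocytes and by TGF-β, which together switch on the nuclear receptor PPARγ, encoded by Pparg. The program includes lectins and scavenger receptors at the surface, secreted proteins such as chitinase-like proteins and ribonucleases, and genes of lipid handling. Macrophages of the lung interstitium and cells that have recently arisen from monocytes typically show less of this program and more of complement component C1q and other transcripts.

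The depth per mouse ranged from 1669076 to 12445769 unique molecular identifiers (UMIs, 1 per transcript molecule), with a median of 1356 to 1948 UMIs per cell. Of the 8 libraries, 4 shared cell barcodes far above the usual rate, and they were B6→B6 mice 1, 2 and 3 and HLA→B6 mouse 2. The 5 pairs among them that were linked shared barcodes at 5 or more times the median rate of all pairs. Removing cells with a shared barcode took out 793 cells, 250 of them alveolar macrophages, so results are given with and without them. HLA→B6 mouse 2 also stood apart in the listed genes and in depth. Its alveolar macrophages had a median of 7144 UMIs, against 2609 and 897.5 in HLA→B6 mice 1 and 3 and 803 to 3837 in the B6→B6 mice. The label covered 159, 284, 190, 685 and 105 cells in B6→B6 mice 1 to 5 and 427, 514 and 130 cells in HLA→B6 mice 1 to 3. Levels below are in CPM, the UMIs of a gene per 1000000 UMIs summed over the labelled cells of a mouse, so they say nothing about the number of macrophages in a graft.

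All 10 genes were lower in the alveolar macrophages of HLA→B6 grafts, and for 6 of them, Marco, Fabp1, Krt79, Ear1, Siglecf and Pparg, the difference passed the test over all genes. Fitted folds ran from 1.93-fold lower for Pparg to 12.8-fold lower for Marco. For 9 genes the levels of the groups did not overlap, and Siglecf was the gene whose groups met. The test was edgeR's quasi-likelihood test on counts summed per mouse, with p-values adjusted over all 5798 genes that passed the filter on low counts, a set that held all 10 listed genes. In the plot of each gene by mouse, HLA→B6 mouse 2 is the lowest point in all 10 panels.

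**Figure D1:**
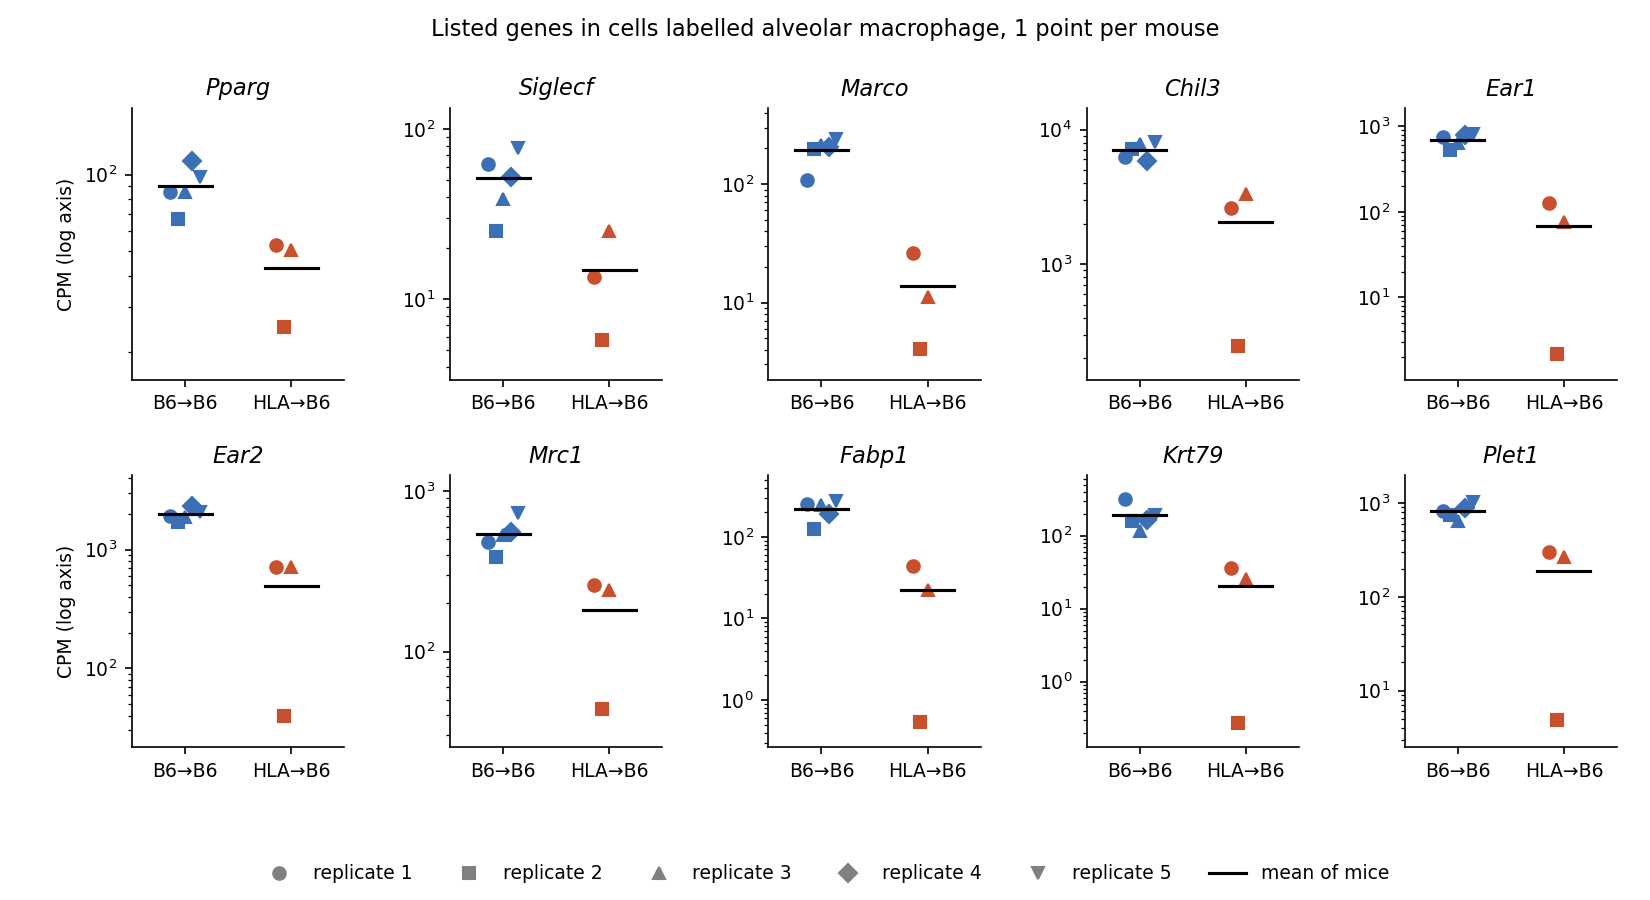
Levels of the 10 listed genes in alveolar macrophages, in CPM on a log axis, with 1 point per mouse (5 B6→B6, 3 HLA→B6) and a line at the mean of each group. For 9 genes the points of the groups do not overlap, and for Siglecf HLA→B6 mouse 3 (25.2 CPM) lies at the level of B6→B6 mouse 2 (25.1 CPM).

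Pparg, which encodes the nuclear receptor PPARγ that directs the program, lies on chromosome 6 (115360951 to 115490399, plus strand, GRCm38). It was at 85.7, 66.8, 85.4, 113 and 98 CPM in B6→B6 mice 1 to 5 and at 52.6, 25 and 50.4 CPM in HLA→B6 mice 1 to 3. The groups did not overlap, and the drop was the smallest of the 10 genes. The means were 89.9 ± 17.2 (SD, n = 5) and 42.7 ± 15.3 CPM (SD, n = 3), and the edgeR log2 fold change was -0.95 (SE 0.26, adjusted p = 0.038).

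Among the surface lectins and receptors, Siglecf encodes a sialic acid-binding lectin that is a standard sorting marker of mouse alveolar macrophages and eosinophils (chromosome 7, 43351341 to 43359531, plus strand). Its levels were 62.6, 25.1, 38.6, 52.2 and 77.9 CPM in B6→B6 mice 1 to 5 and 13.5, 5.72 and 25.2 CPM in HLA→B6 mice 1 to 3. HLA→B6 mouse 3 reached the lowest control, and the other HLA→B6 mice were below it. The log2 fold change was -1.95 (SE 0.45, adjusted p = 0.0214, edgeR).

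Marco encodes a scavenger receptor with a collagen-like stalk that binds bacteria and particles (chromosome 1, 120474538 to 120505024, minus strand). It was at 109, 196, 216, 206 and 239 CPM in B6→B6 mice 1 to 5 and at 26.3, 4.08 and 11.2 CPM in HLA→B6 mice 1 to 3. The lowest control was far above the highest HLA→B6 mouse, and Marco had the largest fitted change of the 10 genes, with a log2 fold change of -3.68 (SE 0.50, adjusted p = 0.00424, edgeR). Marco was also the listed gene whose UMIs were most concentrated in its top cells in B6→B6 mice. In the B6→B6 mice 185 of 1423 alveolar macrophages held its 787 UMIs, up to 39 in a cell, and the top 1% of cells by Marco (14 cells) held 32.3% of them. The top 1% of cells by Ear2 held 6.58% of the UMIs of Ear2, and the top 1% by Chil3 held 7.17% of those of Chil3.

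Some of the cells with the most Marco carried transcripts of other macrophages. In all, 22 alveolar macrophages had at least 10 Marco UMIs, 15 of them from B6→B6 mouse 4 and 2 from HLA→B6 mice, and they held 351 of the 843 Marco UMIs. Fcna, encoding a ficolin, was at 1692 CPM in these 22 cells and at 56 CPM in the other 1403 B6→B6 alveolar macrophages, and 6 of the 22 had an Fcna UMI. Saa3, an acute phase protein gene, was at 10546 against 106 CPM, with its UMIs in 4 of the 22 cells. Timd4, Vsig4, Lyve1 and Folr2, which mark resident macrophages outside the air space, were at 215, 275, 266 and 266 CPM against 15.3, 15.3, 16.1 and 13.5 CPM, with UMIs in 4, 2, 4 and 5 of the 22 cells. In all, 6 of the 22 had a UMI of Fcna, Timd4, Vsig4, Lyve1 or Folr2. The listed genes Chil3 and Mrc1 stood at 5041 and 472 CPM, with UMIs in 16 and 18 of the 22. These genes and the minimum of 10 UMIs were chosen after the values were seen and carry no test. Without the alveolar macrophages that had a UMI of Fcna, Timd4, Vsig4, Lyve1 or Folr2, Marco was at 110, 107, 70.8, 203 and 239 CPM in the B6→B6 mice and at 12, 0 and 12.2 CPM in the HLA→B6 mice. The groups stayed apart, with a log2 fold change of -4.61 (SE 0.84, adjusted p = 0.0068, edgeR).

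Mrc1 encodes the mannose receptor CD206, a lectin of many tissue macrophages (chromosome 2, 14229392 to 14332057, plus strand). Its levels were 485, 390, 535, 556 and 729 CPM in B6→B6 mice 1 to 5 and 259, 43.8 and 241 CPM in HLA→B6 mice 1 to 3. The groups did not overlap, but the log2 fold change of -1.41 (SE 0.44, adjusted p = 0.0589, edgeR) did not pass the test (0.00317 with the linked libraries as a block).

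Of the secreted proteins, Chil3 encodes the chitinase-like protein Ym1 (chromosome 3, 106147554 to 106167564, minus strand). It was at 6214, 7225, 7781, 5854 and 8098 CPM in B6→B6 mice 1 to 5 and at 2615, 247 and 3346 CPM in HLA→B6 mice 1 to 3. The groups did not overlap, and HLA→B6 mouse 2 was an order of magnitude below the other HLA→B6 mice. The log2 fold change was -1.59 (SE 0.57, adjusted p = 0.0921, edgeR) with all mice and -1.05 (SE 0.20, adjusted p = 0.0189) without HLA→B6 mouse 2, and the adjusted p was 0.0257 with the linked libraries as a block. The near-copy Chil4, whose transcript is 94.7% identical to that of Chil3, was not used here, and reads from it could have been counted as Chil3.

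Ear1 and Ear2 encode eosinophil-associated ribonucleases, secreted members of the ribonuclease A family that mouse alveolar macrophages also express. They are neighboring copies on chromosome 14 (Ear1 at 43818765 to 43875517, minus strand; Ear2 at 44102654 to 44103534, plus strand). Over the last 300 transcript bases, the end that the assay reads, they are identical at 296 of 300 positions, so reads could pass from one to the other and their separate values are uncertain. The 250 bases before their RefSeq start sites are shown because they are near-copies too, with 246 of 248 aligned bases identical (GRCm38.p6, each 5′ to 3′ on the strand of its gene). The RefSeq start of Ear2 is the GENCODE start above, while that of Ear1 lies 55878 bases downstream of the GENCODE start, so the Ear1 window is inside the span given above. Capitals mark the motif TTGCNNAA, the core bound by C/EBP factors.
Ear1, chr14:43819640-43819889, minus strand: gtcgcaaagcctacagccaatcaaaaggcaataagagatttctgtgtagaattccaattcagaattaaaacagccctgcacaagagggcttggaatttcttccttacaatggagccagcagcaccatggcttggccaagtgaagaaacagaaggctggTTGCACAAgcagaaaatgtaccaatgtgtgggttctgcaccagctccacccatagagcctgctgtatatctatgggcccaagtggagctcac
Ear2, chr14:44102404-44102653, plus strand: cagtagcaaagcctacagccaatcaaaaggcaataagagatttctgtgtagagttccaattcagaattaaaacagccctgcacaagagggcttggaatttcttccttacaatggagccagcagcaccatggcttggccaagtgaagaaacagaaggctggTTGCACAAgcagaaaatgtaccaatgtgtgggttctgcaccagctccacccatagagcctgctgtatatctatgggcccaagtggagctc

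Despite the near-identical upstream sequence, the values of the 2 genes were not parallel in all cell types. Ear1 was at 745, 524, 633, 786 and 812 CPM in B6→B6 mice 1 to 5 and at 128, 2.18 and 75.5 CPM in HLA→B6 mice 1 to 3. The HLA→B6 mice were all far below the controls, with a log2 fold change of -3.23 (SE 0.81, adjusted p = 0.0279, edgeR). Ear2 was at 1935, 1724, 1873, 2308 and 2078 CPM in B6→B6 mice 1 to 5 and at 718, 40.0 and 716 CPM in HLA→B6 mice 1 to 3. Its groups did not overlap either, but the log2 fold change of -1.85 (SE 0.64, adjusted p = 0.0808, edgeR) did not pass the test (0.0136 with the linked libraries as a block). In monocytes 1967 UMIs were counted as Ear2 and 2 as Ear1.

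The remaining genes serve lipid binding, the cytoskeleton and the cell surface. Fabp1 encodes a fatty acid-binding protein known best from liver and gut (chromosome 6, 71199827 to 71205023, plus strand). It was at 254, 125, 246, 190 and 279 CPM in B6→B6 mice 1 to 5 and at 43.3, 0.545 and 22.4 CPM in HLA→B6 mice 1 to 3. The groups were clearly apart, with a log2 fold change of -3.26 (SE 0.79, adjusted p = 0.0246, edgeR). The 250 bases before its RefSeq start, which lies 52 bases downstream of the GENCODE start above, are shown because they hold both AGGTCA, the core element read by nuclear receptors such as PPARγ, and a C/EBP core. Capitals mark TTGCNNAA and 2 copies of AGGTCA on the other strand, which read TGACCT here, and the copy nearest the RefSeq start lies after the GENCODE start.
Fabp1, chr6:71199629-71199878, plus strand: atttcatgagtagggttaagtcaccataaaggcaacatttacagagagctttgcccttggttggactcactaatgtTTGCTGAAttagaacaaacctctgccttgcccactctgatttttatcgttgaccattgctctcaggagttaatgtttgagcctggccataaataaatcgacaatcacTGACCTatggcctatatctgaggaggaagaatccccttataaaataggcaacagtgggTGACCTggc

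Across the 10 genes, AGGTCA was found on either strand of a 250-base window before a RefSeq start in 3 genes (Pparg, Fabp1 and Plet1) and in 14% of 32851 windows of all genes. TTGCNNAA was found in 5 genes (Pparg, Ear1, Ear2, Fabp1 and Plet1) and in 9.56% of all windows. GAGGAAGT, a sequence bound by PU.1, was found in 0 of 10 genes and in 2.44% of windows. Pparg had 3 start sites and so 3 windows. These are matches of letters only.

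Krt79 encodes a keratin (chromosome 15, 101929332 to 101940324, minus strand). Its levels were 316, 161, 116, 164 and 194 CPM in B6→B6 mice 1 to 5 and 35.5, 0.272 and 25.2 CPM in HLA→B6 mice 1 to 3. No HLA→B6 mouse came near the lowest control, and the log2 fold change was -3.26 (SE 0.83, adjusted p = 0.0296, edgeR). Plet1 encodes a surface protein held by a lipid anchor (chromosome 9, 50494525 to 50505482, plus strand). It was at 831, 752, 639, 882 and 1013 CPM in B6→B6 mice 1 to 5 and at 299, 4.90 and 263 CPM in HLA→B6 mice 1 to 3. The groups did not overlap and HLA→B6 mouse 2 was far below the other HLA→B6 mice, and the log2 fold change of -1.98 (SE 0.81, adjusted p = 0.129, edgeR) did not pass the test (0.0277 with the linked libraries as a block).

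Read together, 6 of the 10 listed genes were called lower, where 5.92% of all genes tested were called lower (343 of 5798, with 369 called higher). Without TMM factors, 690 genes were called lower and 223 higher, and the median of all genes moved to -0.26 on the log2 scale. All 10 listed genes stayed lower on that scale, 7 of them past the threshold. The median log2 fold change was -1.97 over the list and -0.03 over all genes tested. Of the 10 genes, 9 had all HLA→B6 mice below the lowest control, against 17.7% of all genes tested. An exact two-sided permutation test of the 3 against 5 mice gave p = 0.0357 for each of these 9, the smallest p that 56 splits allow, and p = 0.0714 for Siglecf.

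**Figure D2:**
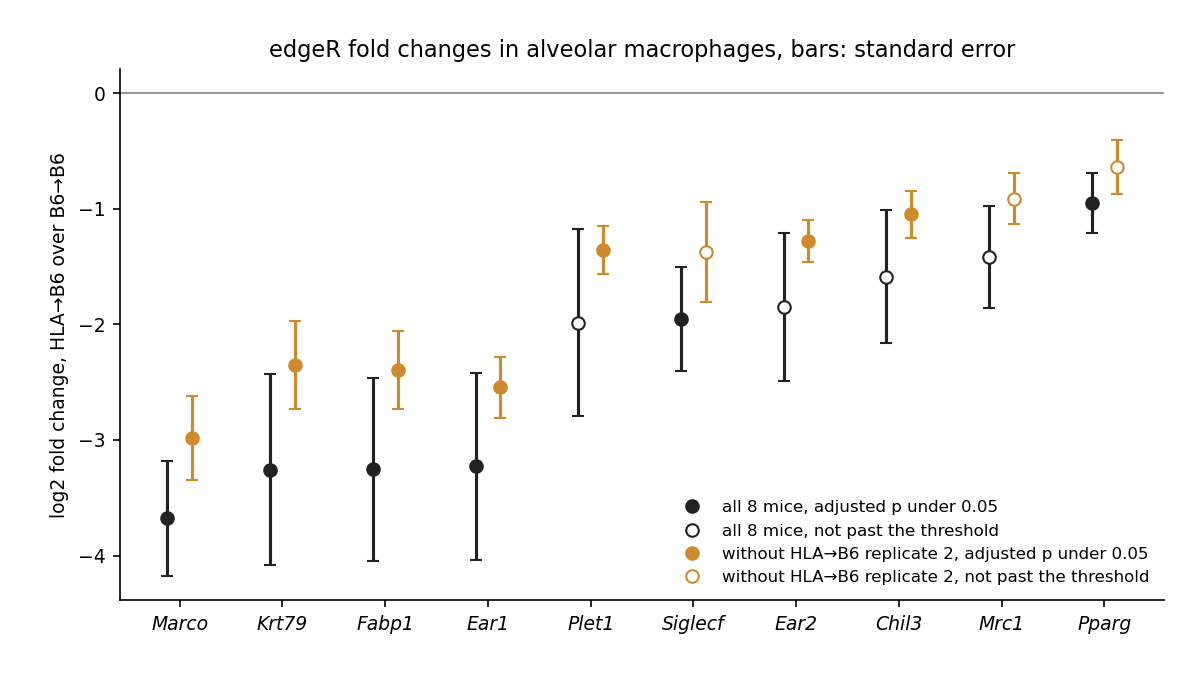
edgeR log2 fold changes (HLA→B6 over B6→B6) of the 10 listed genes in alveolar macrophages, with all mice and without HLA→B6 mouse 2, with bars for the standard error. All points lie below 0, and Marco has the lowest value with all mice (-3.68).

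Several calls changed without HLA→B6 mouse 2. With it left out, Marco (-2.98, adjusted p = 0.00417), Ear1 (-2.55, 0.00219), Fabp1 (-2.40, 0.00626) and Krt79 (-2.35, 0.0115) stayed past the threshold with smaller log2 fold changes (edgeR). Plet1 (-1.36, adjusted p = 0.00983), Ear2 (-1.28, 0.00626) and Chil3 (-1.05, 0.0189) then passed it as well. Pparg (-0.64, adjusted p = 0.173) and Siglecf (-1.38, 0.113) no longer did. Each other mouse left out, except B6→B6 mouse 2, also ended some calls. Pparg was not called without B6→B6 mouse 1, 3, 4 or 5 (adjusted p = 0.067, 0.0543, 0.105 and 0.0653), and Siglecf without B6→B6 mouse 4 (0.0585) or HLA→B6 mouse 1 (0.0503). Ear1 was not called without B6→B6 mouse 1 (0.0589), B6→B6 mouse 4 (0.0605) or HLA→B6 mouse 3 (0.0533), and Fabp1 without B6→B6 mouse 1 (0.0556) or 4 (0.0534). Krt79 was not called without B6→B6 mouse 1, 4 or 5 (0.0651, 0.0605 and 0.0504). Marco was called whichever mouse was left out, and without B6→B6 mouse 4, the mouse with the most labelled cells, it was the only listed gene called (adjusted p = 0.0211).

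The direction was the same within the linked libraries and outside them. Among the 4 linked libraries, HLA→B6 mouse 2 was below all 3 B6→B6 mice in 10 of 10 genes, by 3.17-fold for Pparg to 726-fold for Krt79 (median 44.3). The largest folds are uncertain, since Krt79 had 1 UMI and Fabp1 2 UMIs in the alveolar macrophages of HLA→B6 mouse 2. Among the other 4, HLA→B6 mice 1 and 3 were below B6→B6 mice 4 and 5 in 10 of 10 genes, by 2.05-fold for Pparg to 11.9-fold for Marco (median 3.37). Leaving out the cells of shared barcodes gave 7 called genes, the 6 above and Mrc1 (-1.47, adjusted p = 0.0345, edgeR). In that fit 457 of 5454 genes tested were called lower. The linked set and the set of other libraries hold too few mice for a test of their own. The share of all tested genes with the same order within each set was not read, so the 10 of 10 genes have no background here. With the linked set as a block in the fit of all mice, all 10 genes were called. That fit also called more genes in all, 1253 of 5798 against 712 without the block, with 623 against 343 of them lower. The log2 fold changes with the block were -1.90 for Mrc1, -2.63 for Ear2, -2.18 for Chil3 and -2.95 for Plet1, the 4 genes not called without it.

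The share of macrophages with a UMI of a gene was compared at equal depth, as the expected share after thinning each cell to 1000 UMIs, which 1128 of 1423 B6→B6 and 882 of 1071 HLA→B6 alveolar macrophages reached. Chil3 was found in 91.7 ± 5.39% of cells of the B6→B6 mice and in 35.3 ± 20.9% of those of the HLA→B6 mice (mean ± SD over mice). For Ear2 the shares were 77.4 ± 4.36% and 28.8 ± 21.5%, and for Plet1 56 ± 3.60% and 16.6 ± 13.5%. The large SD in the HLA→B6 group came with the low shares of mouse 2. For Ear1 they were 45.1 ± 5.59% and 6.98 ± 6.36%, and for Mrc1 44.1 ± 5.21% and 17.7 ± 11.7%. The rarer transcripts Fabp1 (16.0 ± 4.36% and 2.02 ± 2.44%), Krt79 (15.9 ± 6.25% and 2.30 ± 2.21%) and Marco (10.3 ± 3.92% and 0.583 ± 0.629%) were found in few HLA→B6 cells at this depth. Pparg and Siglecf were found in few cells of either group, 9.29 ± 1.43% and 4.66 ± 1.62% for Pparg and 5.23 ± 1.65% and 1.67 ± 1.12% for Siglecf. T cells, which should lack all 10 genes, had at least 1 of them in 1.67 ± 1.92% (B6→B6) and 0.520 ± 0.239% (HLA→B6) of cells, against 95.5 ± 4.36% and 47.2 ± 25.2% of alveolar macrophages. The median depth of T cells was 973.5 to 2600 UMIs over the 8 mice.

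The listed genes were found together in the same cells in controls. In a draw of 1000 UMIs per cell, a B6→B6 alveolar macrophage held a median of 4 of the 10 genes in each of the 5 mice, and 75.6% to 86.7% of cells held 3 or more. In HLA→B6 mice 1, 2 and 3 the median was 1, 0 and 1 genes, and 33.7%, 1.54% and 26.2% of cells held 3 or more. Cells with none of the 10 genes made up 1.10% to 8.46% of the labelled cells in the B6→B6 mice and 37.5%, 81.1% and 37.7% in HLA→B6 mice 1, 2 and 3. The HLA→B6 label thus covered cells with the program and cells in which none of it was detected at this depth, and mouse 2 held mostly the latter. The plot of genes per cell shows both kinds of cells in HLA→B6 mice 1 and 3.

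**Figure D3:**
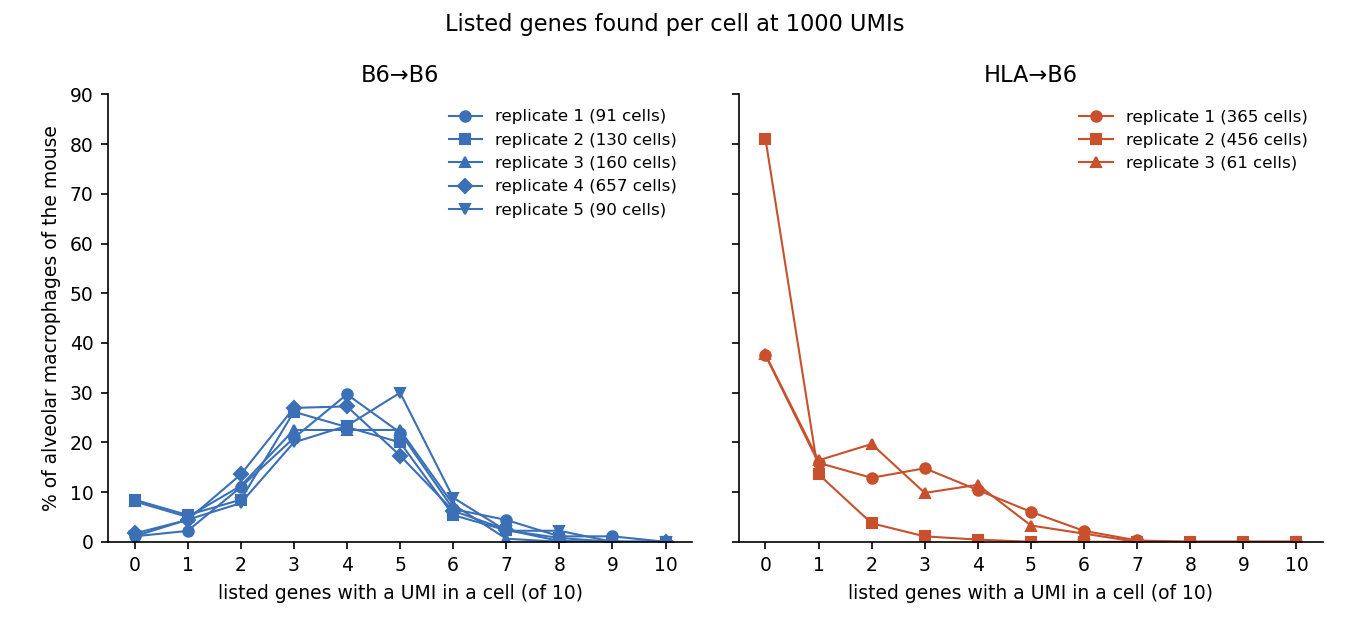
Share of alveolar macrophages of each mouse (y axis, percent) by the number of the 10 listed genes with a UMI in the cell (x axis) after a draw of 1000 UMIs per cell, with B6→B6 mice left and HLA→B6 mice right. B6→B6 curves peak at 3 to 5 genes, while HLA→B6 curves are highest at 0 genes, with 81.1% of cells of mouse 2 there.

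Transcripts of C1q, the complement component that marks interstitial and monocyte-derived macrophages, were found mostly in the labelled cells with few listed genes. At 1000 UMIs, 0% of the cells with 3 or more listed genes had a UMI of C1qa, C1qb or C1qc in each of the 5 B6→B6 mice, and 17.1%, 14.3% and 0% of 123, 7 and 16 such cells in HLA→B6 mice 1, 2 and 3. Of the cells with 0 or 1 listed genes, 82.1%, 70.1% and 72.7% had C1q in HLA→B6 mice 1, 2 and 3, and 20% to 90.5% in the B6→B6 mice, where such cells were few (3 to 40 per mouse). Without thinning, 61.8%, 80.0% and 56.9% of labelled cells had a C1q UMI in HLA→B6 mice 1, 2 and 3, and 27.7%, 45.4%, 20%, 1.61% and 1.90% in B6→B6 mice 1 to 5. The higher shares in B6→B6 mice 1 and 2 moved with shared barcodes. Without the cells of shared barcodes they were 5% and 11.8%, against 16.9% in mouse 3 and 61.6%, 80.0% and 57.5% in the HLA→B6 mice.

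Levels were also read in the labelled cells without a C1q UMI, a split chosen after the values were seen. The split was made at full depth, with a median of 803 to 7144 UMIs per cell over the mice. Cells with and without a C1q UMI were thus not matched in depth between mice. The cells without one numbered 1199 in B6→B6 mice and 163, 103 and 56 in HLA→B6 mice 1, 2 and 3. In HLA→B6 mouse 1, Chil3 was at 6963 CPM, Plet1 at 903, Mrc1 at 495 and Pparg at 98.5, all within the range of the B6→B6 mice (5996 to 10826, 887 to 1023, 482 to 736 and 77.9 to 116 CPM). Without the cells of shared barcodes Mrc1 was at 497 CPM in this mouse, below the lowest control (514 CPM), while Chil3, Plet1 and Pparg stayed within the range of the controls. In the cells without a C1q UMI Ear2 (1852 CPM), Ear1 (331), Fabp1 (123), Krt79 (82.1), Marco (43.8) and Siglecf (19.2) were below every B6→B6 mouse (lowest 2099, 699, 167, 162, 79.4 and 33.4 CPM). HLA→B6 mouse 3 lay below every B6→B6 mouse in all 10 genes, with Chil3 at 5428 CPM near the lowest control, and mouse 2 was far below in all 10. With these cells alone, edgeR called 279 of 5034 genes, 81 of them lower, and 4 listed genes among them: Marco (-2.82, adjusted p = 0.0186), Krt79 (-2.18, 0.0324), Ear1 (-2.17, 0.0283) and Siglecf (-1.76, 0.03). The other 6 genes kept lower fitted levels that did not pass the test, from -0.68 for Pparg (adjusted p = 0.251) to -1.99 for Fabp1 (0.0733).

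In the cells with a C1q UMI the means of 9 listed genes were below those of the cells without it in both groups, and Marco was the exception in B6→B6 mice. Over the 4 B6→B6 mice with at least 10 such cells, Chil3 was at 35.4 ± 27.8 CPM, Ear2 at 53.0 ± 46.0 and Plet1 at 8.63 ± 7.82, with Ear1, Fabp1 and Siglecf at 0 UMIs. In the 3 HLA→B6 mice Chil3 was at 1095 ± 942 CPM, Ear2 at 261 ± 212 and Plet1 at 80.9 ± 77.3. Marco was at 320 ± 221 CPM in these B6→B6 cells and at 9.79 ± 8.97 CPM in the HLA→B6 cells. The B6→B6 value rested on 1, 46, 78 and 16 Marco UMIs in mice 1 to 4. Mouse 1 was at 31.5 CPM, below its cells without a C1q UMI (118 CPM). Of all labelled cells, 1 of mouse 2 and 3 of mouse 3 had at least 10 Marco UMIs, and they held 39 and 78. How many of these were C1q-positive was not read, so the B6→B6 mean may rest on few cells. The C1q-positive cells of all 3 HLA→B6 mice (155 CPM or more) thus held more Chil3 than those of the 4 B6→B6 mice (66.8 CPM or less), and less Marco. Many of these B6→B6 cells carried shared barcodes. Without such cells, 5, 16, 30, 11 and 2 C1q-positive cells were left in B6→B6 mice 1 to 5, and in mice 2, 3 and 4, with at least 10, Chil3 was at 37.6, 46.3 and 0 CPM and Marco at 734, 602 and 303 CPM. The HLA→B6 mice were then at 1063, 150.3 and 2048 CPM for Chil3 and 20.5, 4.71 and 4.57 CPM for Marco, and the order of the groups was as before.

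The levels of some other cell type markers in the labelled cells also differed between the groups. The 12 markers of interstitial or monocyte-derived macrophages summed to 1249 to 13169 CPM in the alveolar macrophages of B6→B6 mice and to 36374, 32008 and 27999 CPM in HLA→B6 mice 1, 2 and 3, without overlap. Apoe, which was not called, made up much of this sum in HLA→B6 mice (mean 20225 of 32127 CPM). Of the 10 tested, 4 rose, the lipid sensor gene Trem2 (2.14, adjusted p = 0.0056), the osteopontin gene Spp1 (1.44, 0.00719), the glycoprotein gene Gpnmb (2.62, 0.0166) and the membrane protein gene Ms4a7 (2.64, 0.0414, edgeR log2 fold changes), and 0 fell. Cd163 and Folr2 were too low to be tested, and their means were lower in HLA→B6 mice (0.272 against 17.9 CPM and 11.2 against 26.2 CPM). The 7 monocyte markers summed to 62.8 to 358 CPM in B6→B6 mice and 235 to 606 CPM in HLA→B6 mice. Of 6 tested, 2 rose, Ly6c2 (3.67, adjusted p = 0.0296, edgeR) and Fcgr4 (1.36, 0.0276). Ly6c2 was at 3.30, 20.9, 26.4, 2.70 and 2.51 CPM in B6→B6 mice 1 to 5 and at 17.8, 228 and 30.8 CPM in HLA→B6 mice 1 to 3. Its rise thus rested mostly on HLA→B6 mouse 2, and HLA→B6 mouse 1 lay within the range of the controls. Red cell markers were at 347 to 15349 CPM in B6→B6 mice and at 0, 423 and 386 CPM in HLA→B6 mice, with 0 of 3 called, and T cell markers were at 0 to 137 and 14 to 81.7 CPM. The part of these transcripts in the changes of the listed genes was not tested.

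**Figure D4:**
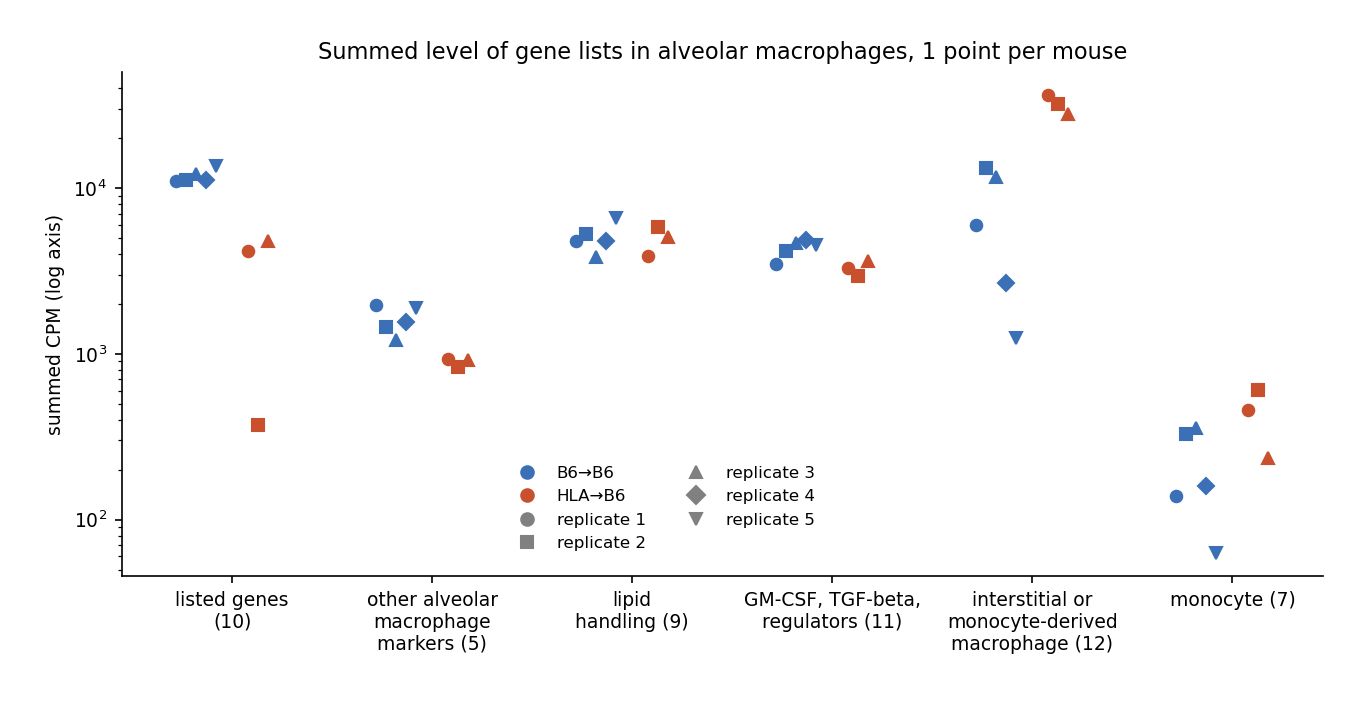
Summed CPM (log axis) of gene lists in alveolar macrophages, 1 point per mouse, with the number of genes in parentheses. The listed genes and the interstitial or monocyte-derived markers separate the groups in opposite directions, while the lipid handling and GM-CSF lists overlap between groups.

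The surroundings of the program in the same cells changed in part. Of 5 alveolar macrophage markers outside the list, Car4, a carbonic anhydrase (-4.19, adjusted p = 0.00279), and Cidec, a lipid droplet protein (-3.25, 0.0284), fell (edgeR log2 fold changes), while Itgax, encoding CD11c, was at -0.08 (0.811) and Atp6v0d2, a proton pump subunit, at -0.03 (0.942). The sum of the 5 was 1218 to 1978 CPM in B6→B6 mice and 830 to 927 CPM in HLA→B6 mice. Of 8 tested genes of a further list of alveolar macrophage genes, 4 fell and 0 rose, and besides Car4 these were the zinc transporter gene Slc39a2 (-1.28, adjusted p = 0.0175), the protease gene Ctsk (-1.05, 0.0219) and the coagulation factor gene F7 (-1.24, 0.0413).

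Genes of GM-CSF and TGF-β signaling and macrophage regulators were tested as a list of 11 genes. Of these, 0 of 11 passed the threshold, and the median log2 fold change was 0.12. The lowest p-values were those of Csf2ra, the GM-CSF receptor α chain, at 207 ± 57.3 CPM in B6→B6 and 308 ± 64.9 CPM in HLA→B6 mice (0.82, adjusted p = 0.0534, edgeR), and of Tgfbr2, a TGF-β receptor, at 190 ± 44.8 and 92.0 ± 36.6 CPM (-0.90, adjusted p = 0.054). Of the 9 genes of lipid handling, Fabp5 rose (1.63, adjusted p = 0.02), and Cidec and Olr1, a receptor for oxidized lipoprotein (-1.22, 0.0233), fell. Fabp5, a fatty acid-binding protein gene of the same family as Fabp1, was at 903 ± 383 CPM in B6→B6 and 2354 ± 1122 CPM in HLA→B6 mice, opposite in direction to Fabp1. Fabp4 was at 109 ± 31.6 and 145 ± 51.6 CPM and did not pass the test (0.71, adjusted p = 0.114).

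The other lists gave few calls. Csf3r was the 1 neutrophil marker of 3 tested that rose (1.21, adjusted p = 0.0372, edgeR). Top2a (-1.72, adjusted p = 0.02) and Birc5 (-1.53, 0.0219), 2 of 3 proliferation genes, fell. The 1 T cell, 1 club cell and 1 endothelial marker tested were not called, and dendritic cell, eosinophil and basophil, B cell and type 2 pneumocyte markers were too low to be tested.

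Monocytes showed which of the 10 genes belong to both cell types. In 1968 monocytes Siglecf, Marco and Fabp1 had 0 of 4924943 UMIs, which allows up to 0.609 CPM, so their pooled levels in alveolar macrophages were at least 43.3-fold, 148-fold and 152-fold higher. Ear1, Krt79, Plet1 and Mrc1 had 2, 4, 10 and 16 UMIs there. Pparg, Chil3 and Ear2 were clearly expressed in monocytes, and these were the 3 listed genes that could be tested in them.

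Pparg was at 147, 56.2, 27.9, 62.5 and 5.84 CPM in the monocytes of B6→B6 mice 1 to 5 and at 47.0, 75.4 and 60.8 CPM in those of HLA→B6 mice 1 to 3. The groups overlapped fully, with a log2 fold change of 0.15 (SE 0.46, adjusted p = 0.999, edgeR). Chil3 was at 303, 450, 397, 405 and 251 CPM in B6→B6 and 561, 102 and 493 CPM in HLA→B6 monocytes (0.05, SE 0.38, adjusted p = 0.999). Ear2 was at 441, 500, 376, 419 and 497 CPM and at 283, 568 and 953 CPM (0.37, SE 0.28, adjusted p = 0.999). None of the 3 passed the test, in a comparison in which 0.023% of genes tested were called (1 of 4352, with 219 at an unadjusted p under 0.05 and 15 called by DESeq2).

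Within monocytes the 3 genes belonged to different cells. In monocytes with a UMI of Ly6c2 or Ccr2 and none of Fcgr4, which mark classical monocytes, Chil3 was at 580 ± 168 CPM in B6→B6 mice and 695 ± 359 CPM in HLA→B6 mice. In monocytes with a UMI of Fcgr4 and none of Ly6c2 or Ccr2, which mark nonclassical monocytes, it was at 58.6 ± 39.7 and 15.8 ± 1.70 CPM. Ear2 had the opposite order, at 121 ± 70.8 and 108 ± 82.2 CPM in the former and 939 ± 345 and 1123 ± 452 CPM in the latter. Pparg followed Ear2, at 19.7 ± 27.3 and 3.40 ± 3.25 CPM against 130 ± 59.0 and 130 ± 9.98 CPM. Each order held in all 8 mice, and the split was chosen after the values were seen, as a description.

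The change of Chil3 between groups differed between alveolar macrophages and monocytes of the same mice. The difference of the log2 fold changes was -1.92 (SE 0.29, adjusted p = 0.00473, edgeR with the mouse as a block), in a comparison in which 2.4% of genes tested were called (153 of 6382). For Ear2 the difference was -2.72 (SE 0.76, adjusted p = 0.082) and for Pparg -1.13 (SE 0.56, adjusted p = 0.328), and neither passed the test. For the other genes monocytes held too few UMIs for such a comparison.

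Cells labelled myeloid, 755 in all, had little of the program. Ear2 was the 1 listed gene that could be tested there, at 411, 149, 38.2, 10.7 and 95.7 CPM in B6→B6 mice 1 to 5 and 14.1, 3.32 and 0 CPM in HLA→B6 mice 1 to 3. The groups overlapped, since B6→B6 mouse 4 lay below HLA→B6 mouse 1, and the log2 fold change of -3.83 (SE 1.14, adjusted p = 0.405, edgeR) did not pass the test. In this comparison 0% of genes tested were called (0 of 4395, with 215 at an unadjusted p under 0.05 and 25 called by DESeq2). Without B6→B6 mouse 4 the adjusted p of Ear2 was 0.0411.

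Over all cell types, alveolar macrophages held 99.0% of the UMIs of Ear1, 98.1% of Fabp1, 97.6% of Plet1, 97.1% of Mrc1, 96.1% of Marco, 95.3% of Krt79 and 95.0% of Siglecf. For Chil3 the share was 92.1%, for Ear2 81.5% with 16.5% in monocytes, and for Pparg 65.0% with 28.6% in monocytes. Over all 8 mice, alveolar macrophages had the highest mean of the 11 labelled types for each of the 10 genes. In the HLA→B6 mice alone, monocytes had the higher mean for Ear2 (601 ± 336 against 492 ± 391 CPM) and Pparg (61.1 ± 14.2 against 42.7 ± 15.3 CPM), and mast cells, present in enough cells in 1 of these mice, for Siglecf (51.2 against 14.8 CPM). The mast cell value of Siglecf rested on 2 UMIs in 29 cells, too few to rank the cell types for this gene. Over all mice, for Pparg the means of 72.2 ± 28.9 CPM in alveolar macrophages and 60.3 ± 41.3 CPM in monocytes (SD, n = 8 each) lay within their spread. Chil3 followed in the order 5172 ± 2810 CPM in alveolar macrophages, 653 ± 1111 in leukocytes (n = 7) and 370 ± 147 in monocytes, where the last 2 did not differ beyond their spread, and Ear2 in the order 1424 ± 817, then 504 ± 201 in monocytes and 90.3 ± 140 in myeloid cells. In T cells, the background for free RNA, the mean was at most 4.16 CPM for any of the 10 genes. The highest T cell values were those of B6→B6 mouse 4, with Chil3 at 31.7 and Ear2 at 11.4 CPM, or 0.541% and 0.493% of the level in its alveolar macrophages. For genes with few UMIs the T cell level reached a larger part of that in alveolar macrophages, up to 13.6% for Pparg and 10.4% for Marco in HLA→B6 mouse 2, 9.98% for Pparg in B6→B6 mouse 1, 8.42% for Krt79 in HLA→B6 mouse 3 and 7.83% for Siglecf in HLA→B6 mouse 1. Cell types were drawn by the authors from these counts, so the order is a description.

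**Figure D5:**
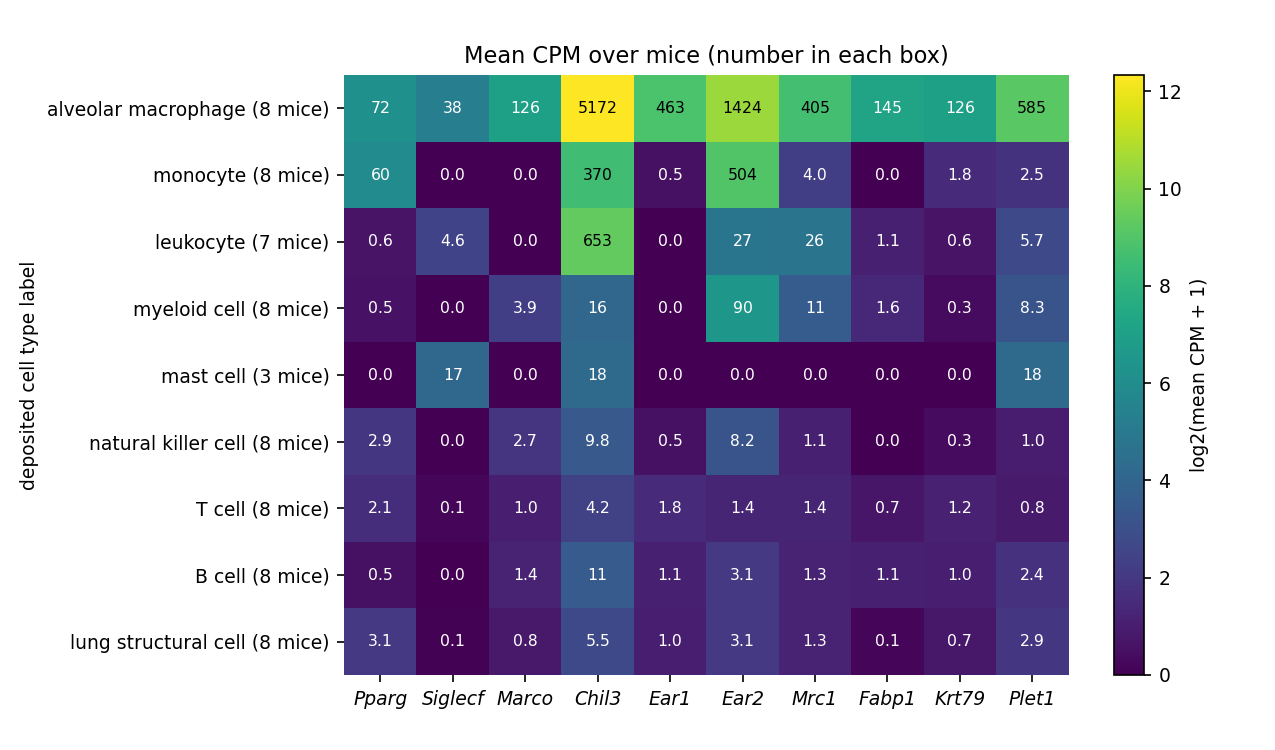
Mean CPM over mice of each listed gene (columns) in deposited cell types (rows, with the number of mice that had at least 10 cells), colored by log2(mean CPM + 1). Type 2 pneumocytes and plasma cells, with at least 10 cells in 1 and 2 mice, are not shown. With both groups pooled the alveolar macrophage row is the highest for each gene, and monocytes share Chil3 (370 CPM), Ear2 (504 CPM) and Pparg (60.3 CPM). In HLA→B6 mice alone monocytes were higher for Ear2 and Pparg, and mast cells for Siglecf on only 2 UMIs in 1 mouse.

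The genes whose pattern over the 11 cell types was most like that of a listed gene were taken by Pearson's r on mean log2(CPM + 1), with 3 genes for each and at least 10 CPM in the highest type. For Ear1 and Krt79 the first was Slc39a2 (r = 0.999 and 0.994), for Fabp1 Trim29 (0.993), for Marco Gal (0.987), for Chil3 Abcd2 (0.975), for Plet1 Ccl8 (0.974), for Pparg Ssfa2 (0.972), for Ear2 Fcgr1 (0.967), for Mrc1 C1qa (0.961) and for Siglecf Cxcl13 (0.933). For Mrc1 the next was C1qb (0.959). The cell types of all genes come from the same libraries, and these values carry no test.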

How the data were processed

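Single-cell RNA was measured in 8 lung grafts, 1 library and 1 mouse each. The deposited values are UMI counts per gene and cell, with no normalization, that the authors made from 10x Genomics 3′ libraries, for which 10000 cells of each graft were loaded. The submitters' processing notes name Cell Ranger, Seurat, mm10 and GRCm38. The authors' methods also name SoupX for free RNA, and the sources used here do not say whether the deposited counts precede or follow it. Cells took their mouse and their type from the deposited table of cells. The names of the HLA→B6 cells begin with the numbers 2, 3 and 5 where that table gives the same cells mice 1, 2 and 3. The table's numbers are used here because they match the sample titles. The groups are the same under both, while the pairs by replicate number depend on it. In all, 0 columns of values were left unused. All alveolar macrophages belong to 1 deposited cluster.

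The list of genes, the other gene lists and the tests were chosen with earlier results of these data known. Named genes are the 10 listed ones, the genes of each list past the threshold (otherwise the 2 with the lowest p) and, per listed gene, the 3 genes most alike over cell types. Fcna, Saa3, Timd4, Vsig4, Lyve1, Folr2, the C1q split and the split of monocytes were chosen after their values were seen.

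Counts were summed per mouse and cell type with at least 10 cells, since the mouse is the replicate. Genes were kept where filterByExpr found enough counts (minimum 10), TMM factors scaled the sums, and the test was the quasi-likelihood F test of edgeR 4.0.16 in R 4.3.3, with the adjusted p (Benjamini-Hochberg over all genes tested) under 0.05 as the threshold. Every adjusted p in the text is from edgeR unless another tool is named. The scripts were tested on simulated data. Shares of cells are the values expected if 1000 UMIs were drawn from each cell that has them. A count of 0 was read as at most 3 counts, and such limits cover counting error only. Scrublet in scanpy 1.11.5 (expected rate 0.06) marked 258 cells as doublets, or 1.24%, 23 of them alveolar macrophages, and these were left out in 1 alternative only. Positions are from GENCODE M21 on GRCm38, whose names matched 98.8% of genes, and upstream windows from RefSeq. Motifs were searched on both strands in the 250 bases before each start, without a limit on overlap.

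Samples with the same replicate number did not deviate together (correlations in alveolar macrophages of -0.05, 0.32 and -0.25 for numbers 1, 2 and 3), so the numbers were not used to pair mice. Alternatives were DESeq2 1.42.0, no filter, no TMM, each mouse left out, the replicate number or the linked libraries as a block, cells of shared barcodes, doublets or cells with transcripts of other types left out, a minimum of 500 UMIs per cell, the same number of cells per mouse, and other depths for shares. Leaving out cells with C1q transcripts or with those of Fcna, Timd4, Vsig4, Lyve1 or Folr2, and mice of replicates 1 to 3 without a block, were added after the data were seen.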

Additional observations from a re-analysis of the deposited data

Results flagged for a closer look

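The change of Chil3 between groups differed between alveolar macrophages and monocytes of the same mice, by -1.92 on the log2 scale (SE 0.29, adjusted p = 0.00473, edgeR interaction of cell type and group). Chil3 had a log2 fold change of -1.59 in alveolar macrophages and 0.05 in monocytes. With each mouse left out in turn the difference was between -2.27 and -1.62 and stayed past the threshold. In 17 groups of 5 mice, a size that only the B6→B6 group has, no single mouse stood out by Dixon's criterion. The 3 HLA→B6 mice were outside this check. For Chil3 in alveolar macrophages, HLA→B6 mouse 2 was at 247 CPM, against 2615 and 3346 CPM in mice 1 and 3.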

How the results depend on the processing

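All 10 listed genes were lower in HLA→B6 alveolar macrophages in every alternative, and of 210 alternative values 168 kept their side of the threshold, 27 lost it and 15 gained it. Listed genes called, 6 as reported, were 10 without the filter on low counts, 10 with linked libraries as a block, 4 with the replicate block of mice 1 to 3, 1 in those mice with no replicate block, and 1 to 7 with a mouse left out. Genes called in alveolar macrophages, 712 as reported, were 1083 without the filter, 253 with the replicate block, 83 in those mice without it, 1253 with linked libraries as a block, 413 with the same number of cells per mouse, 279 without cells of C1q transcripts, and 180 (without HLA→B6 mouse 2) to 829 with a mouse left out. In monocytes (1 as reported) they were 15 by DESeq2, 98 without the filter, 11 with the replicate block, 9 without it, 5 with linked libraries as a block, 2 without shared barcodes and 1 to 6 with a mouse left out. In myeloid cells (0 as reported) they were 25 by DESeq2, 153 without the filter, 30 with the replicate block, 15 without it, 15 with linked libraries as a block and 0 to 27 with a mouse left out. Genes whose change differed between the cell types, 153 as reported, were 410 without the filter and 39 to 167 with a mouse left out. Signs turned only in monocytes: Pparg (0.15) was at -0.081 with the replicate block, -0.0036 in those mice without it and -0.10 to 0.49 with a mouse left out; Chil3 (0.05) was at -0.27 with the replicate block, -0.32 with linked libraries as a block and -0.38 to 0.51 with a mouse left out; Ear2 (0.37) was at -0.13 to 0.73 with a mouse left out. Of 110 differences in shares of cells, 93 moved by less than the spread between mice and 17 by more. The cause of these shifts was not tested. All alveolar macrophages form 1 deposited cluster, so an analysis of the main cluster alone gave no other value. With 3 mice against 5, an exact test cannot go below p = 0.0357, and at a median of 803 to 7144 UMIs per macrophage Pparg and Siglecf are missed in most cells.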

Other observations

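Outside macrophages and monocytes, Chil3 was also found in cells labelled leukocyte, at 2933, 1326, 62.3, 128 and 63.8 CPM in B6→B6 mice 1 to 5 and at 57.2 and 0 CPM in HLA→B6 mice 1 and 2. The highest value rested on 47 UMIs in 1 of 17 cells, and the next on 108 UMIs in 5.41% of 74 cells. Siglecf reached 51.2 CPM in the mast cells of 1 of 3 mice, from 2 UMIs in 29 cells, and was at 0 in the others. Pparg was at 14.4 CPM in the type 2 pneumocytes of the 1 mouse with at least 10 of them, from 1 UMI in 10 cells.

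The UMIs of the rarer listed genes lay in few HLA→B6 alveolar macrophages. The top 1% of cells for each gene (11 of 1071) held 96.4% of the UMIs of Marco, 57.7% of those of Fabp1, 51.7% of Krt79, 40.8% of Siglecf and 34.4% of Ear1, against 32.3%, 21.5%, 13.6%, 16.8% and 8.71% in the 14 top cells of 1423 in B6→B6 mice. For Mrc1 the shares were 9.97% and 5.61%. These are values of pooled cells with no test, and a gene with few UMIs is held by few cells whatever its spread.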
